A study of Mus musculus with 24 samples.

Results

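Cohesin sits mostly where CTCF is bound, but 2770 of the 23904 Rad21 sites shared by the parental pro-B libraries lay over 1 kb from any transcript start and overlapped no shared CTCF site (11.6%). These distal sites without a shared CTCF site are called distal non-CTCF sites here. They were selected on the parental lists themselves. A Rad21 or CTCF site is a merged mouse region with a peak in all 3 parental libraries of that antibody, a transcript start is one of the GENCODE vM1 annotation of mouse build mm9, and chromosome 12 was left out. Parental Rad21 replicate 3, the shortest of the parental lists, set much of the selection: without it 7377 sites would qualify. The other Rad21 sites were 14933 distal CTCF-bound sites, 1836 promoter sites without a shared CTCF site and 4365 promoter CTCF-bound sites.

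The cells are v-Abl transformed mouse pro-B lines, B-lymphocyte precursors immortalised by the Abl oncogene. All lines lacked RAG2 and carried the Emu-Bcl2 transgene, and all received the Abl inhibitor STI-571 at 3 µM for 4 days. Chromatin immunoprecipitation with sequencing (ChIP-seq) was done with antibodies to Rad21, a cohesin subunit, and to CTCF. Degron lines carry Rad21 or CTCF as a fusion that is destroyed when the auxin IAA is added. The groups used here were the parental line without IAA, with 3 Rad21 and 3 CTCF libraries, the Rad21-degron line either without or with IAA, with 2 Rad21 libraries each, and the CTCF-degron line with IAA, with 3 Rad21 and 3 CTCF libraries. Rad21-degron cells without IAA are called untreated below, for IAA only. IAA was given at 500 µM from 6 h before STI-571 and then alongside it. CTCF-degron cells without IAA are not analysed here, so in the CTCF comparison the line and the treatment cannot be told apart. The labels do not say whether replicates are separate cultures, so every p-value below measures only the spread between these libraries.

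Cohesin is a ring-shaped complex that extrudes loops of chromatin, and CTCF bound in the right orientation stops it. Cohesin is loaded by NIPBL and has also been mapped to active enhancers and promoters away from CTCF. In B-cell progenitors, enhancers are bound by PU.1 and other ETS factors, by E2A at E-boxes, and by EBF1, RUNX and PAX5, and they drive genes of B-lineage identity and signalling. The peak lists hold no chromatin-mark or RNA data, so whether a given site is an enhancer was not measured.

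The sequences at the centre of the stronger sites differed in which factor motifs they held. Shown first are the 4 distal non-CTCF sites of highest parental rank that had Rad21 peaks in all 3 CTCF-degron libraries and in both untreated Rad21-degron libraries, with none after IAA in that line. Each is the 300 bp window on the plus strand of mm9, centred on the parental Rad21 peaks. Capitals mark matches, on either strand, to the searched motifs, which here are GAGGAAGT (PU.1-type ETS), the E-box CAGCTG and its variant CAGGTG, CCCNNGGG (EBF core), TGTGGTT (RUNX), ATGCAAAT (octamer) and TTCNNNGAA (STAT). Of these 4 windows, 3 hold none of the searched motifs and have no capitals.
Tbl1xr1 site, chr3:21835014-21835313: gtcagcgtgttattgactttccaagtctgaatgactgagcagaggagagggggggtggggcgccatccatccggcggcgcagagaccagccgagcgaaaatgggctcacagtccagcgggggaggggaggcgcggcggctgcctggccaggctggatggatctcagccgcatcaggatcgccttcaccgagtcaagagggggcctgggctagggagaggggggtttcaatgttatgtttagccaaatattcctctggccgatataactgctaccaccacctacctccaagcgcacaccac
Map3k1 site, chr13:112726315-112726614: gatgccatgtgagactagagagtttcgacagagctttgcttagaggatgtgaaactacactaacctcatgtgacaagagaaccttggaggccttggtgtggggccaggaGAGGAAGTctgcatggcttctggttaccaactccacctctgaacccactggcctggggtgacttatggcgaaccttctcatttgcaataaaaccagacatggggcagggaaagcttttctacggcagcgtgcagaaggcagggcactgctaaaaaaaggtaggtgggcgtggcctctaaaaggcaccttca
first Gm10293 site, chr3:52262698-52262997: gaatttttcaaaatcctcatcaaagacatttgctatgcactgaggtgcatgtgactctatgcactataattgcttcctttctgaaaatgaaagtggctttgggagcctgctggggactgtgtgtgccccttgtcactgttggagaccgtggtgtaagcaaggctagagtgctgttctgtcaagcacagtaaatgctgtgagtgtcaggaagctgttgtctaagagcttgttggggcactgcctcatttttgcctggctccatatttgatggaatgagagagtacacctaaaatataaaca
Cenpe site, chr3:134854816-134855115: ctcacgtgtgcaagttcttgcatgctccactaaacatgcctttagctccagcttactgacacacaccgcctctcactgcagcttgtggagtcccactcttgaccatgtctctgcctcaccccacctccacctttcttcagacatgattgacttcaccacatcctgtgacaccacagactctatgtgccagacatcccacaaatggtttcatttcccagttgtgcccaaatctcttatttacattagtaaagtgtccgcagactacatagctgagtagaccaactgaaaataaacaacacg

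The next 2 windows, of the same fate and also among the 8 sites of highest rank, were chosen for holding several motif kinds after their sequences were seen. They show how the motifs can lie together and do not stand for the strongest sites, since 3 of those 8 windows hold none.
Ninj2 intron site, chr6:120062398-120062697: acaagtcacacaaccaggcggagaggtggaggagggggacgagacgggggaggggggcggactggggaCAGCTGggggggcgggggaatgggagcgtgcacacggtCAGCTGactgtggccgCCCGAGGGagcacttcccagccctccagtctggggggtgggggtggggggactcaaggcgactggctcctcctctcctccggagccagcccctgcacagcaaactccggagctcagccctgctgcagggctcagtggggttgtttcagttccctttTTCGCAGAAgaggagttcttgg
second Gm10293 site, chr3:52442840-52443139: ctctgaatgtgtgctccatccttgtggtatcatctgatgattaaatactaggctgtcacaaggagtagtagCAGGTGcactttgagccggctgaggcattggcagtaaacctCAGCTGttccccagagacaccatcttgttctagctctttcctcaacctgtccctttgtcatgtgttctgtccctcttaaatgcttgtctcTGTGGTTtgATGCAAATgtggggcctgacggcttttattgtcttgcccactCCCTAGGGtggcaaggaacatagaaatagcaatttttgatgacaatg

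Shown for contrast are 2 of the strongest sites with no Rad21 peak in any CTCF-degron library. Their capitals include a relaxed core CTCF motif, with 1 position left free and the last letter left out, which was added after the data were seen.
Smad3 exon site, chr9:63498033-63498332: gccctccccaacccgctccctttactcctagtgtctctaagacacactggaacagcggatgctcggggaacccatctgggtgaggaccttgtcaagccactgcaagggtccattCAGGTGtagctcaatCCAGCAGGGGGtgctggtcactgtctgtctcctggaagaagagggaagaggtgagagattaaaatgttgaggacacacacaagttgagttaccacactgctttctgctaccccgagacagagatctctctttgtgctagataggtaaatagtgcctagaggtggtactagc
Col15a1 intron site, chr4:47303932-47304231: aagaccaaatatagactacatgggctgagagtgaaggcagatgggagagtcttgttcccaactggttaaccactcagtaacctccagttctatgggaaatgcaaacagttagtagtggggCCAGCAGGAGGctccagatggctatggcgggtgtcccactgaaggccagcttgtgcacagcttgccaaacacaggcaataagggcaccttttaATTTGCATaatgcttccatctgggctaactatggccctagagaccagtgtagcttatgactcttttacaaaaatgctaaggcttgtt

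The next sequence is a site called in both Rad21-degron libraries with IAA, in an intron of Vti1a. It holds the E-box CAGCTG and 2 copies of the octamer.
Vti1a intron site, chr19:55630685-55630984: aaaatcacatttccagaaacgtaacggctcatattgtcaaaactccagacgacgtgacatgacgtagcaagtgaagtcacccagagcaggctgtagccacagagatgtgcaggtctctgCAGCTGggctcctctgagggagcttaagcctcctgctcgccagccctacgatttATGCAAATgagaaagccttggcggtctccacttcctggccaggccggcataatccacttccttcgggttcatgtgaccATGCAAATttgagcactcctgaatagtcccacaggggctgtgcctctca

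The label needs a qualification: most of these sites had a CTCF peak in at least 1 parental library. No CTCF peak was called at 791 sites (28.6%), while 964 (34.8%) had one in 1 of the 3 parental CTCF lists, 893 (32.2%) in 2, and 122 (4.40%) in all 3, with no single merged CTCF region there holding a peak of every list. By library, CTCF peaks covered 55.2%, 27.9% and 29.4% of the sites in parental replicates 1, 2 and 3. Those peaks were weak within their lists, at a median percentile rank of fold enrichment of 25.3, 19.3 and 19.1, where peaks at distal CTCF-bound Rad21 sites had 79.8, 77.8 and 77.4. The core CTCF motif was present in 13 of the 2770 windows (0.469%), against 0.144% of windows 5 kb to the side and 22.2% of windows at distal CTCF-bound sites. The selection itself separates these sites from CTCF-bound ones, so their lower motif share against the latter is a description. Against the flanks the share was higher, though from few windows, and the sites were not free of CTCF peaks.

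As chosen, the sites were weaker and wider than distal CTCF-bound sites. Their median fold enrichment over background, as the authors' peak caller gave it, was 4.81, 4.96 and 4.35 in the 3 parental Rad21 lists, against 9.95, 9.0 and 5.41. Median width was 934 bp against 755 bp. These values come from the lists that selected the sites and are given as a description. The sites nearest the distance limit lay 1004, 1006 and 1006 bp from a start, and the nearest Rad21 sites without shared CTCF on the other side lay 995, 995 and 993 bp away.

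Most distal non-CTCF sites were either intergenic (1417, 51.2%) or intronic (1258, 45.4%), and 95 were exonic at their centre (3.43%). The median distance to a transcript start was 15872 bp, with 576 sites between 1 and 5 kb, 1006 between 5 and 20 kb, 952 between 20 and 100 kb, and 236 beyond 100 kb. By chromosome, they made up from 6.03% of Rad21 sites on the X chromosome to 16.7% on chromosome 16, leaving aside the Y chromosome and the mitochondrial genome, which hold 6 and 1 Rad21 sites. At 115 sites (4.15%) the 31 bp at the centre had a further exact copy in the genome, so reads could come from another copy.

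Genes of the B lineage had these sites nearby more often than protein-coding genes as a whole. A gene was counted when a distal non-CTCF site lay within 50 kb of one of its transcript starts, which held for 2546 of 21646 protein-coding genes outside chromosome 12 (11.8%). The count was 24 of 36 B-lineage transcription factors (66.7%), 27 of 36 B-cell receptor and surface genes (75%), and 18 of 28 JAK-STAT and survival genes (64.3%), with a median of 1 site per gene in each list and 0 over all genes. In V(D)J recombination and end-joining genes it was 5 of 18 (27.8%). Among genes of other lineages it was 3 of 22 T-lineage genes, 6 of 20 myeloid genes, and 1 each of 15 erythroid and megakaryocyte, 17 liver and 17 neuron genes. No test was made of these shares, and neighbouring genes such as Igll1 and Vpreb1, Blnk and Dntt, or Itgam and Itgax can share a site. The gene lists were chosen with earlier results of these data known, so the shares are a description.

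Distal CTCF-bound sites lay within 50 kb of 62.5% of all coding genes. The B-lineage and JAK-STAT lists were above that share too. It was 83.3% of B-lineage transcription factors, 86.1% of B-cell receptor and surface genes and 96.4% of JAK-STAT and survival genes. Shares were 77.8% for V(D)J recombination and end-joining, 68.2% for T-lineage and 85% for myeloid genes. They were 66.7% for erythroid and megakaryocyte, 70.6% for liver and 52.9% for neuron genes. For the 2 B-lineage lists together, the non-CTCF count was 51 of 72 genes against 12 of 91 in the 5 other-lineage lists. It was 44 and 7 within 20 kb, where 6.16% of coding genes had a site, and 54 and 12 within 100 kb, where 19.7% did. Limiting the sites to those with no parental CTCF peak left 24 and 5 genes, beside 4.15% of coding genes.

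**Figure D1:**
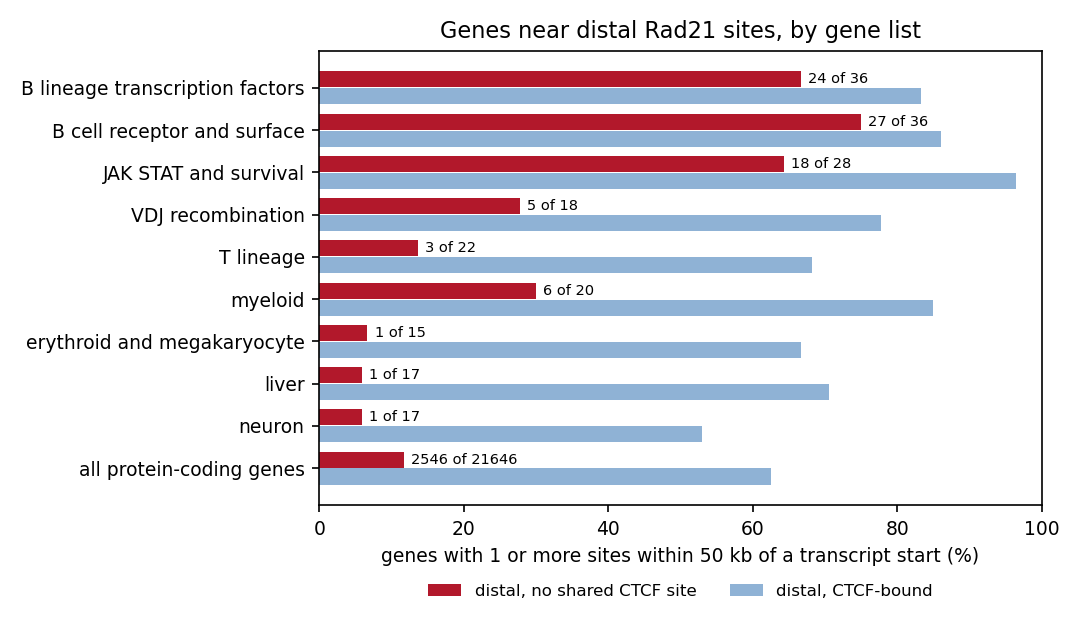
Percent of genes in each list with at least 1 distal Rad21 site within 50 kb of a transcript start, for sites without (red, with counts) and with (blue) a shared CTCF site. The red bars of the B-lineage and JAK-STAT lists stand between 64.3% and 75%, against 11.8% of all protein-coding genes. The lists were chosen with earlier results of these data known.

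With 3 or more sites within 50 kb, 321 coding genes were counted (1.48%). That held for 10 of the 36 B-lineage transcription factors: Ebf1, Ikzf1, Foxp1, Erg, Ets1 and Fli1 had 4 sites each, Elf1 had 5, and Tcf4, Runx1 and Klf2 had 3. Ebf1 is a factor that commits progenitors to the B lineage, Ikzf1 encodes Ikaros, and Erg, Ets1, Fli1 and Elf1 are ETS factors. Several well-known B-lineage regulators had none within that distance, among them Pax5, Tcf3 (E2A), Spi1 (PU.1), Foxo1, Bcl11a and Myc, which were named after their counts were seen. Of these, Foxo1 had sites at 62.5 and 74.6 kb in its own intron and at 83.7, 124, 190 and 198 kb downstream, and another 198 kb upstream in an intron of Maml3. Near Pax5, the commitment factor of the B lineage, sites lay 63.1, 65.2, 102, 174 and 182 kb upstream in introns of the neighbouring gene Zcchc7.

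Among B-cell surface and signalling genes, 5 had 3 or more sites. The phospholipase gene Plcg2 and the chemokine receptor gene Cxcr4 had 5 each, and Cd79b (a signalling chain of the B-cell receptor), Pik3ap1 (an adaptor that links the receptor to PI3-kinase) and Inpp5d (the lipid phosphatase SHIP1) had 3 each. In the JAK-STAT and survival list they were Socs3 and Bcl2l1 with 5, Il2ra with 4, and Socs1 and Ccnd3 with 3. Socs1 and Socs3 encode feedback inhibitors of JAK kinases, Bcl2l1 encodes the survival protein BCL-XL, Il2ra a cytokine receptor chain and Ccnd3 cyclin D3. Outside these lists, Hmgb1, a chromatin protein that is a cofactor of the RAG recombinase, and the integrin gene Itgam had 4, and the adhesion gene Cd2 had 3.

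The counts by gene are small and were not tested against each other. For all distal non-CTCF sites, 41.7% had Rad21 in all 3 CTCF-degron libraries, beside 35.6% of all Rad21 sites. The shares were 43.8% and 63.4% for both untreated Rad21-degron libraries, and 17.4% and 41.5% for no CTCF-degron peak. For a peak in 1 or both libraries with IAA they were 4.69% and 6.63%. At Ebf1, 3 of the 4 sites had Rad21 peaks in all 3 CTCF-degron libraries, 3 had them in both untreated Rad21-degron libraries, and none had a peak with IAA. At Socs3, 3 of 5 sites kept Rad21 in all 3 CTCF-degron libraries. At Plcg2 the count was 4 of 5. At Ikzf1, none of the 4 did and 2 had no CTCF-degron peak at all, and the 4 sites were weak in the parental lists too, with a median rank of 33.7 against 58.7 at Ebf1.

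Over all 105 sites within 50 kb of the 72 B-lineage genes, the fates were near those of distal non-CTCF sites as a whole. Rad21 peaks were present at 55.2% ± 16.2 without IAA (SD, n = 2) and at 1.43% ± 2.02 with IAA in the Rad21-degron line (SD, n = 2), and at 60.0% ± 23.8 in the CTCF-degron line (SD, n = 3). The 3 CTCF-degron libraries gave 79.0%, 67.6% and 33.3%. For the 38 sites near JAK-STAT and survival genes they gave 86.8%, 81.6% and 31.6%, so replicate 3 was the low library in each set.

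Read by nearest coding gene, the 2770 sites were assigned to 1602 genes, of which 266 were nearest to 3 or more sites and 1026 to exactly 1. For 417 sites the nearest coding start was over 100 kb away. Which gene a site acts on was not measured. Cxcr4, whose product holds B-cell progenitors in the bone marrow, led with 16 sites between 4 and 195 kb from its start. It was followed by Cited2, a regulator of the coactivators CBP and p300, with 12, by Ebf1 and by Prdm1 (BLIMP-1, a repressor that drives plasma-cell fate) with 11 each, and by the receptor gene Tgfbr2 and the antiproliferative gene Btg1 with 10 each. The farthest of these sites lay 1070 kb from Cited2, 301 kb from Ebf1, 224 kb from Prdm1, 201 kb from Tgfbr2 and 285 kb from Btg1. Mtss1, a membrane and actin-binding protein gene, Irf2bp2, which encodes a partner of IRF2, and Sesn3, a stress-response sestrin gene, had 9. Gm10293, a predicted gene, had 8, and was tied at that count with Itga9, Arid1b, Tomm20, Prkce, Rreb1, Foxp1, Tbl1xr1 and Smad7. The 8 Gm10293 sites span a stretch downstream of Foxo1, and the strongest of them lies 190 kb from the Foxo1 start.

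Peaks in all 3 CTCF-degron libraries were called at 7 of 16 Cxcr4 sites, 7 of 12 Cited2 sites, 6 of 9 Irf2bp2 sites and 5 of 8 Gm10293 sites. Counts were 3 of 10 at Btg1, 3 of 9 at Mtss1 and 4 of 11 at Prdm1. The share was 41.7% of all distal non-CTCF sites and 35.6% of all Rad21 sites. No CTCF-degron peak was called at 5 of the 10 Btg1 sites, beside 17.4% of all distal non-CTCF sites and 41.5% of all Rad21 sites. These differences between genes were not tested. With IAA in the Rad21-degron line, Cited2, Prdm1 and Btg1 each had 1 site with a peak, and the other 7 of the 10 leading genes had none. A peak in 1 or both of those libraries was called at 4.69% of all distal non-CTCF sites and 6.63% of all Rad21 sites.

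Sites were mostly solitary, as distal CTCF-bound sites also were. When sites were joined at the gap limit commonly used to stitch enhancers into super-enhancers, which lies between 5 and 25 kb, 1853 of 2770 stood alone (66.9%) and 114 clusters held 3 or more, together 387 sites (14%). Distal CTCF-bound sites, which are more numerous, gave 62.5% alone and 13.5% in clusters of 3 or more. The median distance to the nearest site of the same class was 28173 bp for non-CTCF and 20953 bp for CTCF-bound sites. With gaps of at most 5 kb there were 45 clusters of 3 or more, and with gaps of at most 25 kb there were 178. These held 5.09% and 24.2% of the non-CTCF sites. For distal CTCF-bound sites the shares in such clusters were 4.48% and 27.4%.

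The largest cluster held 9 sites over 50.1 kb upstream of Cxcr4, at chr1:130559740-130609855, from 71 to 118 kb from its start. Next came 6 sites each at Bmf, which encodes a pro-apoptotic BH3-only protein, nearest to Tomm20 (a mitochondrial import receptor) and in Ppp3ca (the catalytic subunit of calcineurin). There were 7 clusters of 5. The longest 4 lay in Fam49b, Fli1 and Tgfbr2 and near Tmem189, and the others at Socs3, Ufm1 and Elf1. The cluster nearest to Tmem189 was also 59.3 kb from the start of Cebpb, a myeloid transcription factor gene. At Tgfbr2, all 5 sites had Rad21 in both untreated Rad21-degron libraries, and 3 of 5 in all 3 CTCF-degron libraries. At Fli1, 1 of 5 had both and 2 of 5 had all 3. Over all distal non-CTCF sites these shares were 43.8% and 41.7%, and over all Rad21 sites they were 63.4% and 35.6%. Differences between clusters were not tested.

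In the Cxcr4 region the strongest site, at chr1:130571515-130572863 and 82.6 kb upstream, had a Rad21 fold enrichment of 7.92, 7.47 and 5.89 in the parental lists. It was 5.47 and 4.74 in the Rad21-degron line without IAA, not called in either library with IAA, and 9.02, 7.27 and 5.07 in the CTCF-degron line. None of the 16 Cxcr4 sites was called with IAA. The weakest of them, 106 kb upstream, was called in none of the degron libraries at all. Fold enrichments are the authors' values per peak, from lists made separately, and are not compared between groups.

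**Figure D2:**
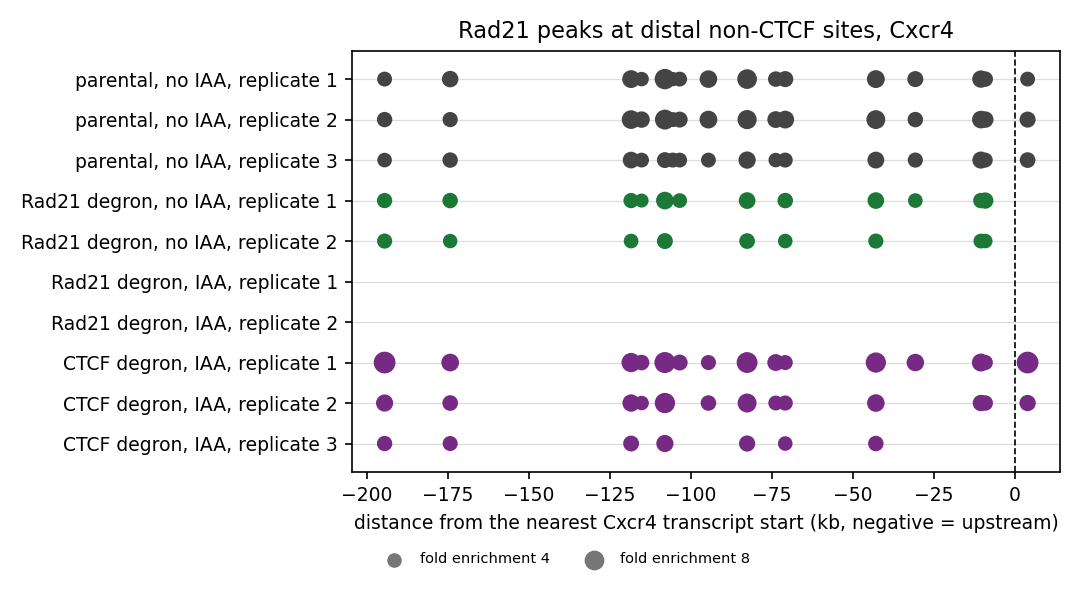
Rad21 peaks at the 16 distal non-CTCF sites around Cxcr4, by library (rows) and distance from the transcript start in kb (x axis, upstream negative). Point area follows the authors' fold enrichment; the rows of the Rad21-degron libraries with IAA hold no point.

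At antigen-receptor genes outside chromosome 12, 33 sites lay within 50 kb of an immunoglobulin or T-cell receptor gene, 26 of them in the Igk light-chain locus on chromosome 6. Of those 26, 20 had Rad21 in both untreated Rad21-degron libraries and 0 after IAA, and 7 had it in all 3 CTCF-degron libraries against 9 in none. Over all distal non-CTCF sites the shares were 43.8% for both untreated libraries, 41.7% for all 3 CTCF-degron libraries and 17.4% for none, and over all Rad21 sites they were 63.4%, 35.6% and 41.5%. Downstream of the constant gene Igkc, where Igk enhancers are known to lie, sites were found 9.02, 17.1 and 27.1 kb from its start. The site at 17.1 kb had fold enrichments of 5.29, 6.19 and 4.77 in the parental lists, 6.13 and 4.29 without IAA, and 7.21, 6.61 and 5.09 in the CTCF-degron line.

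After Rad21 degradation, few distal non-CTCF sites had a Rad21 peak, but 796 of the 2770 had none in either untreated library of that line. Rad21 peaks covered 68.2% and 46.9% of the sites in the 2 Rad21-degron libraries without IAA, and 4.33% and 0.542% in those with IAA. The means were 57.5% ± 15.1 and 2.44% ± 2.68 (SD, n = 2 each), and the groups did not overlap. The mean fell by 55.1 points (exact two-sided permutation p = 0.333, which is as low as 2 libraries against 2 can go). A fall was not particular to these sites. In the same libraries the mean went from 78.9% to 1.86% at distal CTCF-bound sites. At promoter sites without shared CTCF it went from 50.0% to 11.0%. Of the 2770 sites, 1121 were called in both untreated libraries but in neither treated one (40.5%), against 58.9% of all Rad21 sites. In the same libraries the human peaks of the spike-in, from HCT116 cells, numbered 11861 and 14878 without IAA and 5603 and 5481 with it. Human Rad21 sites were kept at 49.7% ± 1.43 (SD, n = 2). The part that whatever lowered the human counts has in the mouse counts was not tested. With each list ended at the same count of human peaks, the change was -17.5 points, and with q of 0.001 or less or with 50% of the site covered it was -12.4 and -11.3 points. With all lists shortened to the shortest, which has 1384 mouse peaks, the direction turned, to 0.668 points.

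The Rad21-degron line without IAA already had fewer of these sites than of the CTCF-bound ones. A peak in both libraries was called at 1214 distal non-CTCF sites (43.8%), where it was 63.4% of all Rad21 sites. Distal CTCF-bound sites were found at 85.4% and 72.4%, which put the non-CTCF sites 21.4 points lower on average (17.2 and 25.5 lower in the libraries; exact two-sided sign-flip permutation p = 0.5, the lowest possible from 2 libraries). Site strength moved with this difference. Within quartiles of parental Rad21 rank the order was the opposite, with non-CTCF sites higher by 12.6 ± 2.09 points among the weakest sites (first quartile), by 12.9 ± 5.17 in the next quartile and by 5.71 ± 5.60 in the third one (SD, n = 2 libraries each; exact sign-flip permutation p = 0.5 for each). Against promoter sites without shared CTCF, at 65.8% and 34.2%, they were 7.55 points higher (2.38 and 12.7 in the libraries, exact sign-flip permutation p = 0.5).

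A few distal non-CTCF sites were still called with IAA. A peak in 1 or both libraries was found at 130 sites (4.69%), against 6.63% of all Rad21 sites and 20.5% of promoter sites without shared CTCF. A peak in both libraries was found at 5 sites (0.181%), against 1.34% of all sites. The 4 strongest of the 5 lay 3960 bp from Chrna9, a nicotinic receptor subunit gene, in an intron of Vti1a, 60508 bp from Cecr5 and in an intron of Rhbdf2. The Vti1a site, at chr19:55630072-55631591, had fold enrichments of 5.31 and 5.02 without IAA, 4.94 and 4.56 with IAA, and 6.73, 6.53 and 5.15 in the CTCF-degron line. All 4 also had Rad21 in all 3 CTCF-degron libraries, and a CTCF peak in 2 or 3 of the CTCF-degron CTCF libraries.

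In the CTCF-degron line, Rad21 peaks were called at a larger share of distal non-CTCF sites than of distal CTCF-bound sites. Peaks covered 81.3%, 70.5% and 42.7% of the non-CTCF sites in replicates 1, 2 and 3, a mean of 64.9% ± 19.9 (SD, n = 3). For distal CTCF-bound sites the values were 41.4%, 38.2% and 24.2% (34.6% ± 9.11, SD, n = 3). Non-CTCF sites were higher in each of the 3 libraries, by 30.3 ± 10.9 points (SD, n = 3, range 18.5 to 39.98). The exact two-sided sign-flip permutation p was 0.25, as low as 3 libraries can give. The share of non-CTCF sites kept was 31.7% with q of 0.001 or less and 27.5% with 50% of a site covered. Counting only peaks with q of 0.001 or less, the difference was 8.94 points (exact sign-flip permutation p = 0.75), and with 50% of a site covered it was 14.9 points (exact p = 0.5). In neither case did all 3 libraries have the same sign.

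Site by site, 1154 distal non-CTCF sites had Rad21 in all 3 CTCF-degron libraries (41.7%), against 35.6% of all Rad21 sites and 23.7% of distal CTCF-bound sites. Another 481 had none (17.4%), against 41.5% of all sites and 56.4% of distal CTCF-bound sites. Peaks in all 3 CTCF-degron and both untreated Rad21-degron libraries, with none after IAA in the latter line, were found together at 678 sites (24.5%), against 22% of all sites, so that share is near the background. No CTCF-degron peak combined with the same Rad21-degron pattern was found at 56 sites (2.02%), against 23.4% of all sites.

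Promoter sites without shared CTCF kept Rad21 more often still, at 97.1%, 93.1% and 70.8% (87.0% ± 14.2, SD, n = 3). Distal non-CTCF sites were lower by 22.1 ± 6.20 points (SD, n = 3, range 15.7 to 28.1 lower, exact sign-flip permutation p = 0.25). Compared across the degradations, the CTCF-degron line kept 62.4 points more of the distal non-CTCF sites than the Rad21-degron line with IAA did (exact two-sided permutation p = 0.1, the smallest that 3 against 2 libraries allow), and the groups did not overlap. That difference was 31.2 points with q of 0.001 or less and 27.5 points with 50% of a site covered (exact p = 0.2 for each), and it turned to -0.283 points with all lists shortened to the shortest (exact p = 0.5). The other classes were also higher in the CTCF-degron line than in the Rad21-degron line with IAA. Means were 34.6% and 1.86% at distal CTCF-bound, 87.0% and 11.0% at promoter sites without shared CTCF, and 69.3% and 9.29% at promoter CTCF-bound sites.

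**Figure D3:**
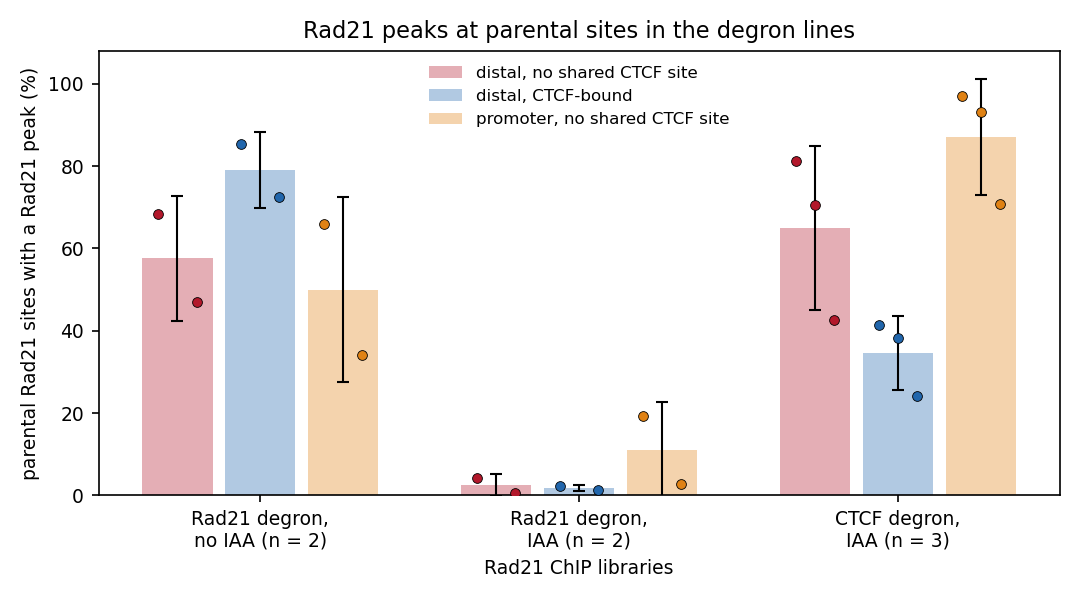
Percent of parental Rad21 sites with a Rad21 peak in degron libraries (points, one per library), with the group mean (bars) and SD (error bars), for distal sites without a shared CTCF site (red), distal CTCF-bound sites (blue) and promoter sites without one (orange). Red points lie above blue ones in each CTCF-degron library and below them in each Rad21-degron library without IAA.

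The contrast in the CTCF-degron line was larger among sites of like strength. In the weakest quartile of parental rank, which held 1991 of the 2770 sites, Rad21 was kept at 59.5% ± 23.0 of non-CTCF and 23.2% ± 7.72 of distal CTCF-bound sites (SD, n = 3 each). In the second quartile the values were 77.1% ± 12.8 (692 sites) and 22.8% ± 7.36, and in the third 90.2% ± 6.89 (85 sites) and 28.6% ± 9.25. The differences were 36.3 ± 15.3, 54.2 ± 5.50 and 61.6 ± 2.36 points (SD, n = 3 libraries each), positive in every library. Only 2 non-CTCF sites fell in the strongest quartile. Among sites called in each untreated Rad21-degron library, the non-CTCF sites were kept at 82.9% and exceeded the CTCF-bound ones by 40.01 points. Human spike-in peaks fell here too, from 9640 and 1748 in the parental to 1675 and 319 in the CTCF-degron libraries of replicates 2 and 3. The effect of this on the mouse sites was not tested.

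**Figure D4:**
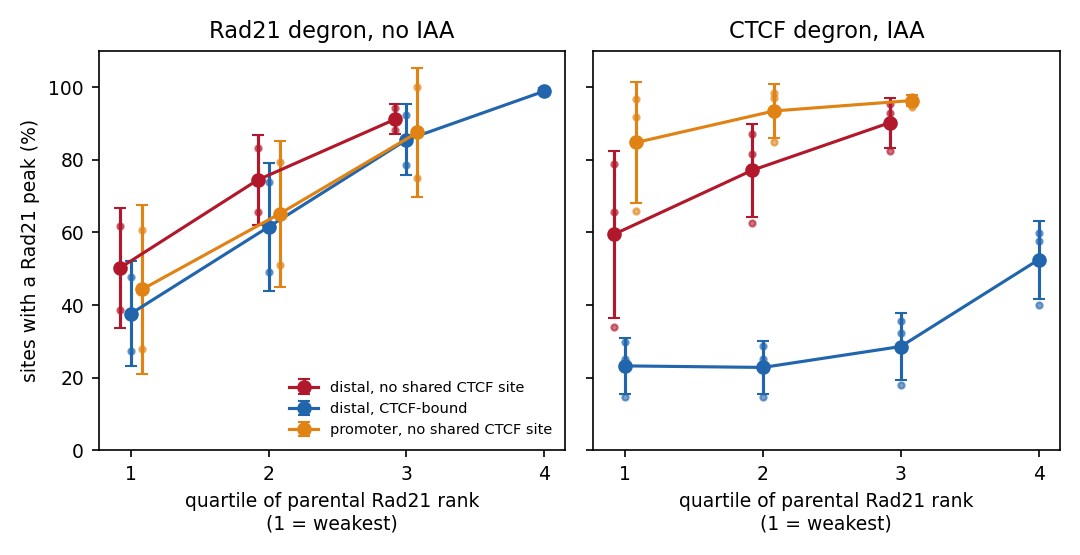
Percent of sites with a Rad21 peak by quartile of parental Rad21 rank, in the Rad21-degron line without IAA (left, n = 2) and the CTCF-degron line (right, n = 3); large points are means with SD, small points single libraries, colours are red for distal non-CTCF, blue for distal CTCF-bound and orange for promoter sites without shared CTCF, and quartiles with few sites are left out. On the right the red line rises from 59.5% to 90.2% while the blue line stays between 22.8% and 28.6% over the same quartiles.

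Where CTCF peaks were called in the CTCF-degron line, Rad21 peaks were more frequent. CTCF ChIP peaks in that line covered 36.6%, 27.98% and 8.88% of the distal non-CTCF sites (24.5% ± 14.2, SD, n = 3), beside 20.2%, 28.1% and 14.3% of distal CTCF-bound sites. Some of these peaks lay at sites without a CTCF peak in any parental list. Of the 791 such sites, they covered 21.7%, 14.7% and 3.16%. At the 1604 non-CTCF sites with no such peak, Rad21 was kept at 46.7% ± 24.6, and at the 203 sites with one in all 3 libraries, at 97.5% ± 3.85 (SD, n = 3 each). At those 203 sites, Rad21 was also called in 12.6% ± 12.2 with IAA in the Rad21-degron line (SD, n = 2). Sites with no parental CTCF peak kept Rad21 at 57.9% ± 25.02 in the CTCF-degron line, and sites with 3 at 81.7% ± 15.0 (SD, n = 3 each). What part residual CTCF, or signal common to the 2 antibodies, has in these values was not tested.

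Fate by position in the genome is given as a description, with no test. Rad21 was kept in the CTCF-degron line at 66.1% ± 18.8 of intergenic, 63.4% ± 21.2 of intronic and 65.6% ± 19.4 of exonic sites (SD, n = 3 each). By distance, values ran from 61.2% ± 20.8 at 1 to 5 kb to 67.1% ± 20.1 at 5 to 20 kb. Sites in clusters of 3 or more were kept at 68.6% ± 20.5 and solitary sites at 63.2% ± 19.4 (SD, n = 3 each). Intergenic sites exceeded intronic ones, and clustered sites solitary ones, in each of the 3 libraries, by less than the libraries differed from each other. In the untreated Rad21-degron line, the share called ran from 49.3% ± 16.2 at 1 to 5 kb to 70.6% ± 10.5 beyond 100 kb (SD, n = 2 each). The 115 sites with a multi-copy centre were lower in the CTCF-degron line, at 42.9% ± 12.1 against 65.8% ± 20.3 at the other sites (SD, n = 3 each). In the untreated Rad21-degron line their share was 43.5% ± 11.1 (SD, n = 2), and none of them had a peak with IAA.

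The sites had sequence features that the selection did not use. The PU.1-type motif GAGGAAGT was present in 9.82% of the 2770 windows, against 1.63% of windows 5 kb away and 2.23% of distal CTCF-bound windows. The E-box CAGCTG was in 30.3%, against 14.4% and 16.3%. For the EBF core CCCNNGGG the shares were 16.8%, 6.65% and 8.10%, and for the RUNX motif TGTGGTT 17.3%, 8.31% and 10.2%. In promoter windows without shared CTCF the 4 motifs were in 3.81%, 18.9%, 23.3% and 4.63% in the same order, so the EBF core was more frequent there than at the distal sites. The E-box variant CAGGTG, at 24.8%, was no more frequent than in distal CTCF-bound windows (26.01%), against 20.7% in the flanks. Motif matches overlap in places and are letters in a window, not measured binding. The motifs were chosen with earlier results of these data known, and their shares were not tested.

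Other motifs were nearer their flanks. The STAT motif TTCNNNGAA was in 12.2% of windows against 8.70% of flanks, the FOXO motif TGTTTAC in 6.21% against 4.51%, the octamer ATGCAAAT in 3.14% against 2.06% and the AP-1 motif TGANTCA in 10.6% against 8.52%. The GATA motif AGATAA was less frequent, at 13.0% against 17.0%. For the general ETS motif CCGGAAGT the shares were 1.05% and 0.253%, and for the MEF2 motif CTATTTATA 0.542% and 0.469%. Median GC content was 48% in the windows and 45% in the flanks, and its part in the motif shares was not tested.

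Some windows held several motif kinds. At least 2 of the 4 motifs PU.1-type ETS, CAGCTG, RUNX and EBF core were present in 423 windows (15.3%), against 2.82% of flanks, 4.25% of distal CTCF-bound windows and 7.41% of promoter windows without shared CTCF. The second Gm10293 window printed above, of the site at chr3:52441435-52444610, holds both E-box forms, the RUNX motif, the octamer and the EBF core. Its fold enrichments were 7.96, 8.50 and 6.24 in the parental lists, 7.09 and 5.88 without IAA, and 9.0, 9.09 and 4.88 in the CTCF-degron line, with no peak in either library with IAA.

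**Figure D5:**
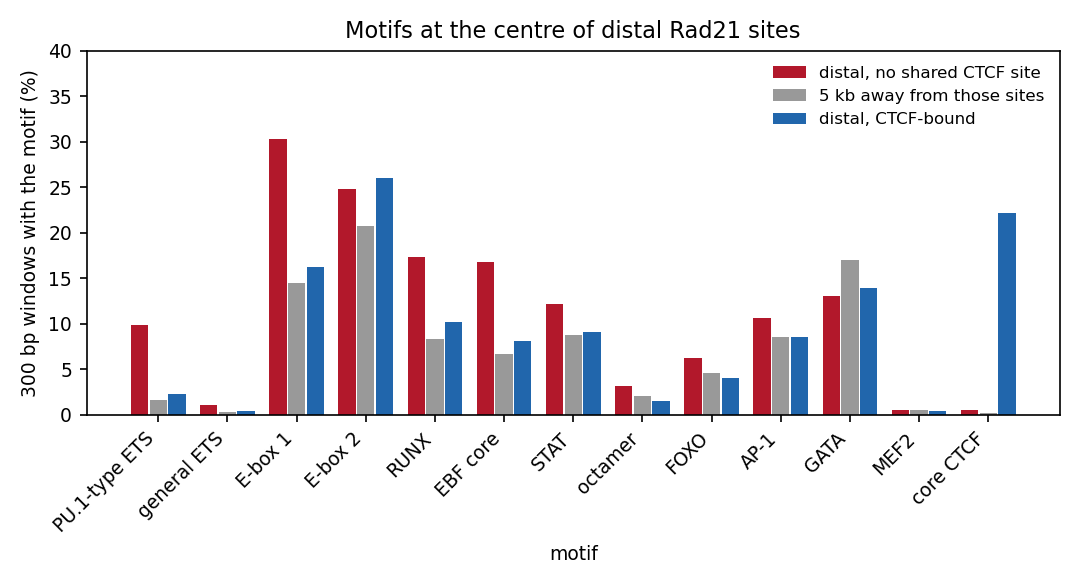
Percent of 300 bp windows with each motif at distal non-CTCF sites (red), 5 kb away from them (grey) and at distal CTCF-bound sites (blue), where E-box 1 is CAGCTG and E-box 2 is CAGGTG. Red exceeds both others most at the PU.1-type, first E-box, RUNX and EBF motifs, and the core CTCF motif is high only in blue among these 3 sets.

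Motif content also differed by fate in the CTCF-degron line. The relaxed CTCF core was in 6.24% of the 481 sites without Rad21 in any CTCF-degron library and in 0.347% of the 1154 sites with Rad21 in all 3, beside 0.758% of flanks and 30.7% of distal CTCF-bound windows. Of the 13 non-CTCF windows with the strict core CTCF motif, 11 were among the 481 and 0 among the 1154. Of the other motifs, CAGCTG was in 16.8% of the sites without and 35.1% of the sites with Rad21, GAGGAAGT in 5.41% and 11.2%, and the EBF core in 11.2% and 20.1%, while TGTGGTT was in 17.3% and 18.3%, and the octamer in 3.53% and 2.08%. These shares are over sites, not replicates, and were not tested, and sites in the 2 sets also differ in parental strength. The relaxed CTCF core was added after the data were seen, and the 481 sites include the Smad3 and Col15a1 sites printed above.

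The strongest sites varied in motif content and shared their fate. The highest-ranked distal non-CTCF site, at chr3:21833565-21836788, lay 138786 bp from Tbl1xr1, a corepressor subunit gene. Its fold enrichments were 12.9, 10.7 and 8.36 in the parental lists, 6.55 and 5.76 without IAA, and 11.2, 9.22 and 6.66 in the CTCF-degron line. It had none of the searched motifs in its window, and was not called with IAA. The Map3k1 site, at chr13:112725541-112727882 and 126340 bp from the start of that kinase gene, had 10.7, 10.7 and 6.67 in the parental lists and 8.85, 7.94 and 5.24 in the CTCF-degron line, with 1 PU.1-type match. The Ninj2 site, at chr6:120061733-120063040 in an intron, had 9.74, 9.70 and 5.56 in the parental lists and 8.77, 7.61 and 5.04 in the CTCF-degron line. All 8 of the highest-ranked sites had Rad21 in every CTCF-degron and untreated Rad21-degron library and none had it with IAA. All 8 also had a CTCF peak in 1 or more parental libraries and in 2 or 3 CTCF-degron CTCF libraries.

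The 4 strongest sites lost in the CTCF-degron line differed among themselves in motif content. The highest-ranked, at chr9:63497767-63498598, was centred in a coding exon of Smad3, a transcription factor of TGF-beta signalling. Its fold enrichments were 8.34, 10.5 and 5.31 in the parental lists and 4.82 in Rad21-degron replicate 1 without IAA, and it was called in no other degron library. The next, at chr4:47303855-47304318 in an intron of the collagen gene Col15a1, had 9.63, 7.80 and 4.85 in the parental lists and no peak in any degron library. Both windows hold the relaxed CTCF core, which was added after the data were seen. Both sites had a CTCF peak in 2 of the 3 parental libraries and in none of the CTCF-degron libraries. The others were a site on chromosome 1 whose central 31 bp occur 455 times in the genome, and a site 285174 bp from Btg1 that was called in each untreated Rad21-degron library (4.71 and 4.35). Neither of their windows holds the relaxed CTCF core. They too had a CTCF peak in 2 of the 3 parental libraries and in none of the CTCF-degron libraries.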

How the data were processed

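ChIP-seq peak lists of 16 libraries were used, 1 per library with replicates not pooled, and the 8 input samples were not used. Per the submitters' processing notes, Bowtie2 2.2.8 and SAMtools 1.8 were used with builds mm9 and hg19, and the alignment reference was mm9 joined with a further sequence entry, per the labels. The peak caller, its threshold and the use of inputs are not given in the sources used here. In the deposited lists each peak has a fold enrichment (a linear ratio), −log10 of its p-value and q-value, and a whole-number score that follows the q-value. The lists hold from 1384 to 67810 mouse peaks and no read counts, so depth is unknown and intervals for counting error cannot be set. Peak names carry short codes that the labels do not explain.

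Human contigs were dropped and chromosome 12 was left out by the selection rule. A site counted as kept when a peak overlapped it by at least 1 bp. Groups were compared by exact two-sided permutation tests, and classes within libraries by exact sign-flip tests, with the library as the unit; 6 differences were tested, and 6 more within quartiles of parental rank, and none of these designs can reach 0.05. Sequences come from NCBIM37 and genes from GENCODE vM1. Scripts used Python 3.11.15 with numpy 2.4.6 and pandas 2.3.3, and were tested on simulated peaks. The 9 gene lists hold 217 genes in all.

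Named sites were the 8 highest by mean parental rank, the 4 highest of each fate, the 8 largest clusters, list genes with 3 or more sites within 50 kb, and the 10 genes nearest to most sites. The sites, the 9 gene lists and the 13 motifs were chosen with earlier results of these data known.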

Additional observations from a re-analysis of the deposited data

How the results depend on the processing

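Under other settings, 106 recalculated values were scored the same as in the main setting, 7 as moved and 3 as changed in sign. A difference was scored the same whenever its sign held, whatever its size. Only the percent kept and the counts had a limit on size. When every Rad21 list was shortened to the shortest, the change at distal non-CTCF sites with IAA in the Rad21-degron line was 0.668 points in place of -55.1, and CTCF-degron minus Rad21-degron with IAA was -0.283 points in place of 62.4; such lists keep only the 1384 peaks of highest fold. The change with IAA was -12.4 points with q of 0.001 or less, -11.3 with 50% of a site covered and -17.5 at equal numbers of human peaks. The percent kept in the CTCF-degron line was 31.7% with q of 0.001 or less and 27.5% with 50% of a site covered. Of the sites, 791 had no parental CTCF peak, and leaving out a parental Rad21 library gave from 3069 to 7377 sites, the last without Rad21 replicate 3. Clusters of 3 or more numbered 45 and 178 with gaps of 5 and 25 kb, and 24 B-lineage genes remained in the count with the 791 sites alone. In 200 bp windows the MEF2 share minus that of the flank was -0.108 points. The cause of each shift not stated here was not tested.

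With the replicate number as a block (replicate block), the change with IAA was again -55.1 points (exact sign-flip permutation p = 0.5). Site by site, same-numbered libraries did not deviate together (r = 0.03 over 23904 Rad21 sites). Few sites had a peak with IAA, so this value cannot settle whether same-numbered libraries are paired. Replicate 1 had the higher share of distal non-CTCF sites both without IAA (68.2% against 46.9%) and with it (4.33% against 0.542%). Leaving out 1 library gave from -65.8 to -44.4 points for that change, 56.6% to 75.9% kept in the CTCF-degron line, 25.4 to 36.2 points above distal CTCF-bound sites and 54.2 to 73.5 points for the difference between degradations. The p-values say nothing of stability in designs of this size. Peak presence depends on each list's depth, which is unknown.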
